A study of Mus musculus with 14 samples.

Results

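TAF9B is a subunit of TFIID, the complex that recognises core promoters, and of the SAGA coactivator. Of 10415 TAF9B peaks mapped by ChIP-seq in mouse motor neuron cultures, 3469 overlapped an RNA polymerase II (POL2) peak by at least 1 bp, and 867 of these had their midpoint more than 500 bp from both ends of every gene locus in the study's expression table. Those 867 peaks, 25% of the TAF9B-POL2 peaks (95% Wilson interval 23.6% to 26.5%) and 8.32% of all TAF9B peaks, are described here. They were selected on the TAF9B and POL2 peak calls themselves, so their scores, widths and distances to locus ends are given as a description and carry no test. For comparison, 2602 TAF9B-POL2 peaks lay at locus ends, and 2645 TAF9B peaks without POL2 lay inside loci and 3040 between loci, again more than 500 bp from every end.

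Both ChIP libraries came from wild-type embryoid bodies (EB) of the HBG3 line, C57BL/6 background, differentiated to motor neurons, a line that carries a GFP reporter under Mnx1 (Hb9) control. POL2 was precipitated with antibody 8WG16, and 1 library was deposited per antibody. The RNA-seq libraries, also 1 per condition, compared JM8 wild-type (WT) embryonic stem (ES) cells with the Taf9b_BG10 clone, genotype TAF9B -/- (KO), as ES cells and as EB at days 2, 4 and 6, newborn spinal column of both genotypes, and newborn WT spinal cord, all on a C57BL/6 background and with poly-A selection. The KO cells were a single clone, and by the study's methods the ChIP cultures were differentiated for longer than the last RNA-seq time point, so peaks and day 6 RNA came from different days. No condition had a replicate, so no difference between libraries could be tested, and all intervals below cover counting error over peaks or genes only. Peaks and genes are not replicates of a condition.

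The targeted gene went against the labels in culture. Taf9b stood at 0.537 FPKM (fragments per kilobase of transcript, scaled to the mapped fragments of the library) in WT and 3.06 FPKM in ES cells labelled KO, at 0.516 and 4.08 FPKM at EB day 2, at 1.96 and 4.27 FPKM at day 4 and at 1.37 and 4.01 FPKM at day 6, whereas in newborn spinal column it was 6.65 FPKM in the library labelled WT and 3.31 FPKM in that labelled KO. The KO samples are therefore called libraries labelled KO throughout, and every direction below refers to the labels. The day 6 library labelled WT held motor neuron transcripts (Mnx1 14.3, Isl1 11 and Lhx3 14.9 FPKM) beside the pluripotency transcript Pou5f1 at 198 FPKM and the epithelial keratin Krt8 at 47.2 FPKM, so it held transcripts of more than 1 cell type.

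Promoter-bound TFIID and POL2 mark transcription start sites, whereas coactivators and POL2 are also found at enhancers, distal elements that are often transcribed in both directions. A gene has commonly more than one start site, and other transcripts, among them long non-coding RNAs and small nuclear RNAs, can start inside or between the loci of an expression table. In ES cells exposed to retinoic acid and a hedgehog agonist, neural progenitors form first, with Pax6, Olig2 and Hox genes active, and motor neurons expressing Mnx1 follow.

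The sequences at 12 of the peaks show the range of what lies under them. Each is the 200 bp centred on the midpoint, read from the mouse genome build mm9, in lower case, with capitals marking the words searched for on both strands: the GC box GGGCGG, the CCAAT box CCAAT, the ETS word CCGGAAG, the E-box words CAGCTG and CAGATG, the homeodomain word TAATTA, the Sox word ACAAAG, the TATA word TATAAA and the cyclic AMP response element (CRE) TGACGTCA. The first 3 are strong TAF9B peaks, the next 6 belong to neural or retinoic acid-responsive genes, and the last 3 lie near a microRNA, near a U1 snRNA gene and at the start of the non-coding Airn. In the last label, Mas1 is only the gene name that the expression table gave this position, where a locus can span several genes.
Member with the highest TAF9B score, no locus within 50 kb, chr12:88165061-88165260, mm9, plus strand: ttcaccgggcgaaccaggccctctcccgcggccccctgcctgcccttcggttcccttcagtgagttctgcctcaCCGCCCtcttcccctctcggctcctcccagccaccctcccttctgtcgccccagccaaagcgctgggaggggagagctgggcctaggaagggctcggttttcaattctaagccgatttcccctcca
Kcnt2, chr1:142142120-142142319, mm9, plus strand: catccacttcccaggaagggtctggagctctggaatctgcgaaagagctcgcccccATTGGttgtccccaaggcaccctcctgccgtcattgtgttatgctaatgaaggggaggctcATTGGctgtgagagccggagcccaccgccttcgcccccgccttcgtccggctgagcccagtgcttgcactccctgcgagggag
Tet1, chr10:62328063-62328262, mm9, plus strand: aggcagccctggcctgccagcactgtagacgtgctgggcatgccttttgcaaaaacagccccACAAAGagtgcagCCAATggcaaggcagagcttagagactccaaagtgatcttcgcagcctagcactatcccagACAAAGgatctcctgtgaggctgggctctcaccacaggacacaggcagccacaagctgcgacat
Mnx1, chr5:29805445-29805644, mm9, plus strand: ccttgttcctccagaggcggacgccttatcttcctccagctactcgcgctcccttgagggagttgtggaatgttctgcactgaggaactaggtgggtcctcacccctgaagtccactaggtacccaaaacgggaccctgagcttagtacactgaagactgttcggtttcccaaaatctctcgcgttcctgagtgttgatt
Hes6, chr1:93310622-93310821, mm9, plus strand: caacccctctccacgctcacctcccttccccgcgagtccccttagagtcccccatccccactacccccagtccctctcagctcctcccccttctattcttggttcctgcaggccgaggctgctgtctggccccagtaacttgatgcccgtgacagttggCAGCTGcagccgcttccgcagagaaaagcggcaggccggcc
Notch1, chr2:26342851-26343050, mm9, plus strand: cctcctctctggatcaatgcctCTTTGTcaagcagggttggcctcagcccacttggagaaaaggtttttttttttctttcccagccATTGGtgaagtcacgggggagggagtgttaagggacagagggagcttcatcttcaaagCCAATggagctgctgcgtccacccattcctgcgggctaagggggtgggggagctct
Rara, chr11:98820747-98820946, mm9, plus strand: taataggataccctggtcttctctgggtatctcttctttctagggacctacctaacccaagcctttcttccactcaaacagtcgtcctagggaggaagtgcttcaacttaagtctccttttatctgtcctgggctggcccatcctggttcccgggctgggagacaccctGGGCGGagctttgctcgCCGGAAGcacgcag
Crabp2, chr3:87764827-87765026, mm9, plus strand: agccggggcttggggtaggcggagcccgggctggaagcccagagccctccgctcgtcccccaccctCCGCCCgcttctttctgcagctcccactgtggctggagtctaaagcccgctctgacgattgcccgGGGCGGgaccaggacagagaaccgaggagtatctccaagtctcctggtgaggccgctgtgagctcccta
Hoxb6, chr11:96155996-96156195, mm9, plus strand: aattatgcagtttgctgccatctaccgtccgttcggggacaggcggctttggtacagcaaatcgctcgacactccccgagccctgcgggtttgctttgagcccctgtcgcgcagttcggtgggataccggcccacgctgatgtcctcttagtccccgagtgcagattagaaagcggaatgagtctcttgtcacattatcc
Mir9-3, chr7:86649637-86649836, mm9, plus strand: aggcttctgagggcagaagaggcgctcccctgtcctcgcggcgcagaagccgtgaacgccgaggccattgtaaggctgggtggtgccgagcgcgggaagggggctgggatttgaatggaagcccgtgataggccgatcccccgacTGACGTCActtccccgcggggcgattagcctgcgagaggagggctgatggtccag
Tex14 intron 321.5 bp from a U1 snRNA start, chr11:87236590-87236789, mm9, plus strand: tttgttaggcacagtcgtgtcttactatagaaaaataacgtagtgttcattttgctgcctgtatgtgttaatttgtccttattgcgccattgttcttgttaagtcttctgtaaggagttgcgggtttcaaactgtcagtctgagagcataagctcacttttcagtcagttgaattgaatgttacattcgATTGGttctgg
Airn start inside the Mas1 locus, chr17:12934056-12934255, mm9, plus strand: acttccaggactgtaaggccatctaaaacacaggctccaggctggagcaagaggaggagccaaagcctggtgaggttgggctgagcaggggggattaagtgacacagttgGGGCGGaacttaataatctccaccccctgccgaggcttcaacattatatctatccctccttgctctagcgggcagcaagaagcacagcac
These windows differed widely in base composition, from 38.5% G and C in the Tex14 intron to 67% near Crabp2. The Hoxb6 and Mir9-3 windows held 15 and 18 CpG dinucleotides, and the Notch1, Airn and Tet1 windows 3 each. The Mnx1 and Hoxb6 windows held none of the words, and a word in a window is a description and not a bound site.

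TAF9B scores of the members, the values of the MACS peak caller as deposited with no unit stated, ran from 50 to 637 with a median of 99.6, and widths ran from 86 to 1803 bp with a median of 247 bp. The medians at locus ends were 105 and 252 bp, and those of TAF9B peaks without POL2 were 71.8 inside and 73.7 between loci. The overlapping POL2 peaks covered 757 members over their whole width (87.3%, 84.9% to 89.4%). The members fell on 814 different POL2 peaks, 49 of which held 2 or more members.

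The distance of the midpoint from the nearest locus end had a median of 4426 bp. In 192 members it was 500 to 1000 bp, in 259 it was 1 to 5 kb, in 217 it was 5 to 20 kb, in 129 it was 20 to 50 kb and in 70 it exceeded 50 kb. Close to the 500-bp limit, the members near Slf2, Pcyox1 and Myh10 lay 500.5, 501 and 503 bp from an end, and the non-members near Ncapd3, Bcl7c and Ric8b 499, 495.5 and 491.5 bp. For 195 members (22.5%, 19.8% to 25.4%) the POL2 peak itself reached within 500 bp of a locus end even though the TAF9B midpoint did not. Midpoints of 476 members were inside a locus (54.9%, 51.6% to 58.2%) and 391 were between loci. Of the 414 inside a locus whose strand was known, 291 lay nearer to the 5′ than to the 3′ end (70.3%, 65.7% to 74.5%). TAF9B peaks inside genes without POL2 were spread more evenly, with 51.8% (49.8% to 53.8%) nearer to the 5′ end. The strand was that of 1 gene and the ends were those of the whole locus. That locus spanned several genes for 36.3% of all members inside one and 22.2% of these other peaks, so its 5′ end need not be that of the gene concerned.

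A locus of the expression table can be the merged span of several genes, each with its own FPKM row. Of 21110 loci 1609 held more than 1 gene (7.62%), as did the locus of 173 of the 476 members inside one (36.3%, 32.1% to 40.8%) and of 22.2% (20.6% to 23.8%) of the TAF9B peaks without POL2 inside loci. The start of a gene in such a span can lie far from both ends of the locus, and a peak there counts as away from gene ends. A member in a merged span was given to 1 of its genes by table order, which holds for 212 of 842 assigned members (25.2%). Against GENCODE (release M1, built on mm9), 395 of 864 members on annotated chromosomes lay within 500 bp of a transcript start (45.7%, 42.4% to 49.1%), compared with 12.3% (11.1% to 13.6%) of the TAF9B peaks without POL2 inside loci, 4.25% (3.59% to 5.03%) of those between loci and 97.9% of the TAF9B-POL2 peaks at locus ends. The share was 60.9% (56.5% to 65.2%) for the members inside a locus and 27.1% (22.9% to 31.7%) for those between loci. Inside loci it was 80.9% (74.4% to 86.1%) where the locus held several genes and 49.5% (43.9% to 55.1%) where it held 1, against 16.4% and 11.1% of the TAF9B peaks without POL2. In 260 members the start belonged to the gene the member was assigned to, and in 135 to another gene. Midpoints were in a GENCODE exon in 213 members, in an intron in 322 and outside genes in 329.

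**Figure D1:**
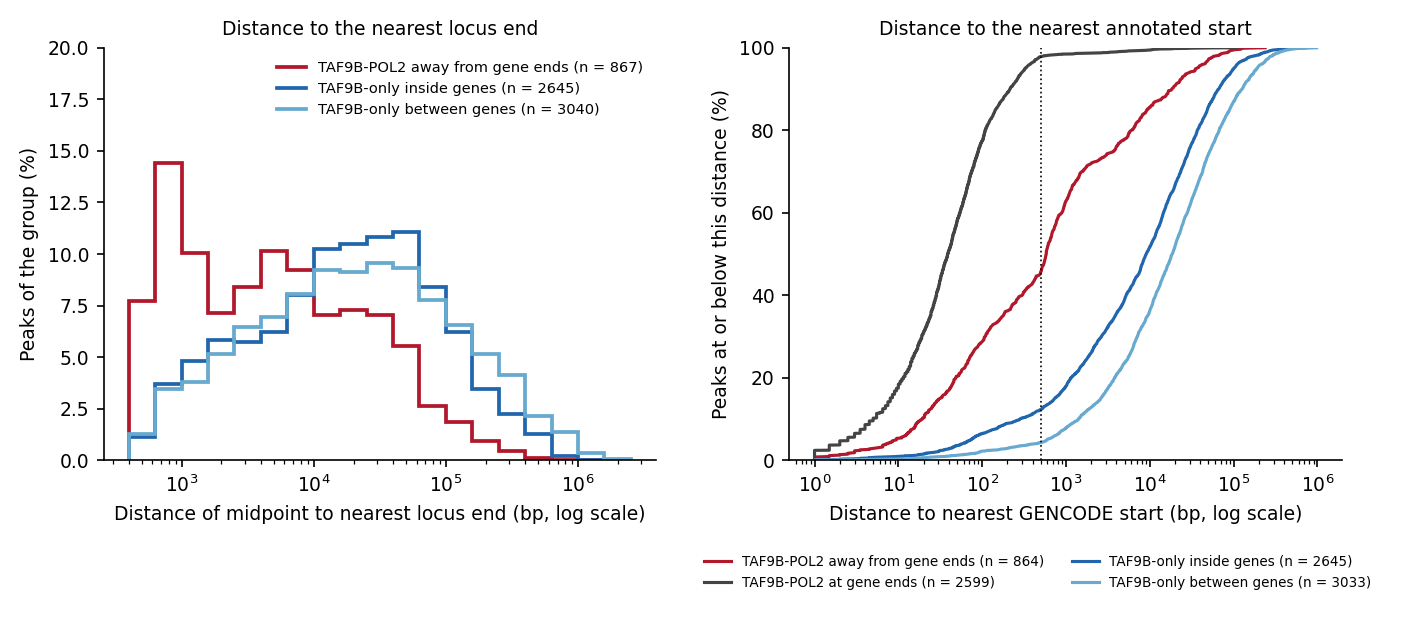
Left, share of peaks (%) by distance of the midpoint to the nearest locus end (bp, log scale) for the 867 members (red) and for TAF9B peaks without POL2 inside (dark blue) and between loci (light blue). Right, cumulative share of peaks by distance to the nearest GENCODE start (bp, log scale), with the TAF9B-POL2 peaks at locus ends in grey and a dotted line at 500 bp, where the members reach 45.7% and the peaks without POL2 stay at 12.3% and 4.25%.

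Most of these starts, 331 of 395, were those of protein-coding genes. Spag9, a scaffold of JNK signalling, had a member with a TAF9B score of 545.98 placed 48.0 kb inside its locus and 1 bp from an internal GENCODE start. Tet1, which oxidises methylated cytosine, had a member 14.6 kb inside its locus (score 430.23) and 110.5 bp from a start. The member farthest from a locus end, 518 kb inside Prkg1, a cGMP-dependent kinase, sat 33.5 bp from the start of Cstf2t, a polyadenylation factor gene that the table lists under the same merged locus, and the one 276 kb inside Macrod2 sat 73.0 bp from the start of Flrt3, a cell adhesion gene listed with Macrod2. Cstf2t stood at 14.5 and Flrt3 at 2.93 FPKM in the WT library at day 6. The member 2.07 kb from an end of the locus shared by Rps27a and Clhc1 was 16 bp from a GENCODE start of that gene, which encodes a ubiquitin and ribosomal protein fusion. Cstf2t and Flrt3 were picked with their values known. Other members among the most distant lay between loci, 292 kb from Tenm2, 259 kb from Atp10a and 255 kb from Mycn. The Tenm2 member, farther from an end than the Macrod2 member, was 254 bp from a GENCODE start given the older name Odz2.

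Of the others, 29 were starts of a lincRNA, 14 of a processed transcript, 12 of a small nuclear RNA (snRNA), 4 of a small nucleolar RNA (snoRNA), 3 of a pseudogene, 1 of a microRNA and 1 of an RNA that GENCODE classes as miscellaneous. The lincRNA starts included Airn, the imprinted transcript antisense to Igf2r, 20.5 bp from the midpoint of a member with a TAF9B score of 237.92, Nespas in the imprinted Gnas locus at 80.0 bp (score 67.92) and Gm15050 in the Hoxa cluster at 115 bp, under a POL2 peak of score 3069.17. Airn, Nespas and Gm15050 were picked with their values known.

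The snRNA and snoRNA starts stood out by their POL2 peaks. Those 16 members had POL2 scores of 548 to 3100 with a median of 2333, where the median over all members was 155, and 13 of them were among the 34 members with a POL2 score above 1000. GENCODE names U1 at 4 of these starts, U2 at 4, U3 at 4 and U5 at 2. U1, U2 and U5 are spliceosomal RNAs and U3 acts in ribosomal RNA processing, and all are made by POL2 from short genes without introns. Tex14, a gene of germ cell bridges, carried the most members of any gene, 6, and all 6 were 81.5 to 344 bp from a U1 or U3 start in its introns. Tex14 itself stood at 2.45 FPKM in the WT and 3.32 FPKM in the library labelled KO at day 6. These RNA genes exist in near-identical copies, so reads could be placed at the wrong copy, and poly-A libraries do not measure their products. Histone genes gave another 3 members with a POL2 score above 1000, among them one 612.5 bp from an end of H1f2, a linker histone gene, at 3100. That value is the highest in both peak lists and was also that of a member at a U5 start, so it does not single out H1f2.

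**Figure D2:**
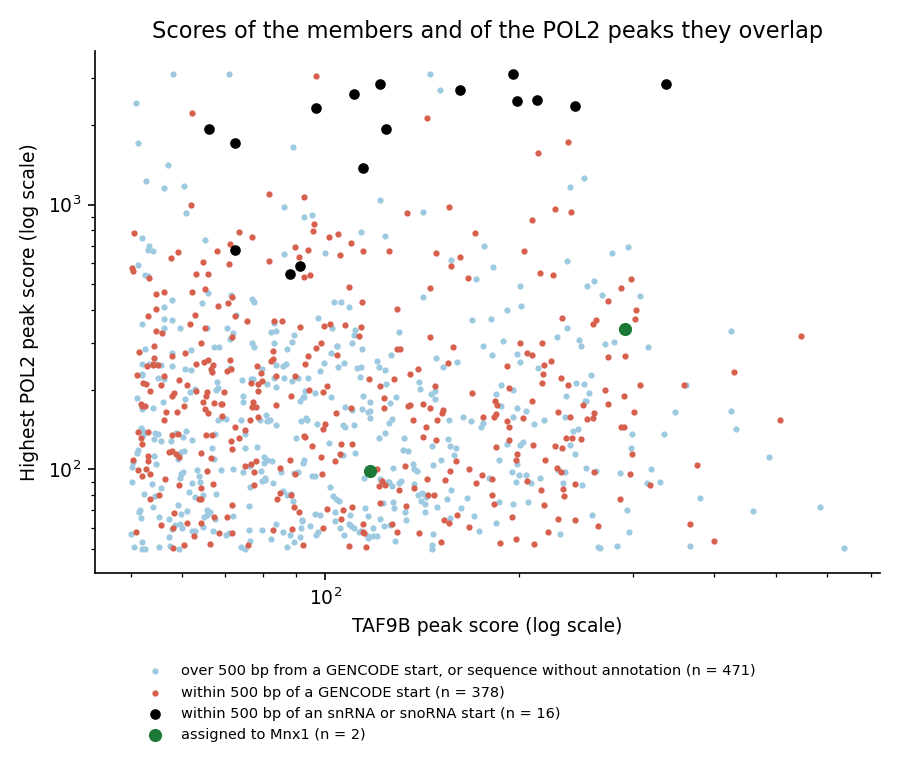
TAF9B score of each member (log scale) against the highest score of a POL2 peak it overlaps (log scale), with members over 500 bp from a GENCODE start in light blue, those within 500 bp in red, those at snRNA or snoRNA starts in black and the 2 assigned to Mnx1 in green. The 16 black points lie between 548 and 3100 on the POL2 axis, above the median of 155, at TAF9B scores of 65.97 to 337.53.

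The other 469 annotated members lay away from GENCODE starts. The strongest TAF9B member of all was among them, at chr12:88164826-88165496 in an intergenic stretch 56.5 kb from the nearest locus end, that of Irf2bpl, with a TAF9B score of 637 and a POL2 score of 50.39. The member upstream of Kcnt2, a potassium channel gene, had the second highest score, 583.61, 573 bp from its GENCODE start and with a POL2 score of 71.97. Kdm2a, a histone demethylase, held one 17.9 kb from an end (486.83), Zfp362, a zinc finger gene, one 5.51 kb outside its locus (459.83) and Chst15, a sulfotransferase, one 2.58 kb inside it (433.19). Among the 8 strongest members by TAF9B score, POL2 scores were 50.39 to 319.27. A locus without a gene symbol in the table, next to GENCODE Bahcc1, had 3 members 15.8 to 23.9 kb outside it. Those of score 294.51 and 251.98 were away from GENCODE starts, and that of score 506.66 lay 109.5 bp from the start of the processed transcript Gm11770.

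Members were unevenly spread over the chromosomes. Chromosome 11 held 152 of them (17.5%, 15.1% to 20.2%), compared with 12.5% (11.2% to 13.8%) of TAF9B-POL2 peaks at locus ends, 11% and 10.8% of the TAF9B peaks without POL2, 11.1% of POL2 peaks and 7.45% of loci. Of the 152, 10 lay at the snRNA and snoRNA starts and 142 elsewhere. Most members were alone, 589 having no other member within 50 kb. The chain with the most members, at gaps of at most 50 kb, held 7 over 65.7 kb of the Hoxb cluster (chr11:96148756-96214450), 6 of them inside a single POL2 peak of 59742 bp and score 58.25. Chains of 4 lay over Rara, which encodes a retinoic acid receptor, within 9.98 kb, over Skap1, next to the Hoxb cluster, and over Rai1, a transcriptional regulator.

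Windows of 300 bp centred on 864 members had a median G and C content of 60%, between the 62.3% of peaks at locus ends and the 52% and 50.7% of TAF9B peaks without POL2. The observed to expected CpG ratio had a median of 0.63 in members, 0.792 at locus ends, 0.28 and 0.293 in peaks without POL2 inside and between loci, and 0.384 in 32841 RefSeq promoters of 300 bp (build GRCm38). Windows with a ratio above 0.6 and more than 50% G and C made up 60.3% (55.4% to 65.0%) of members at GENCODE starts and 45.6% (41.2% to 50.2%) of those away from them, and 12.7% and 10.8% of peaks without POL2 away from locus ends. TAF9B peaks without POL2 at locus ends, 1255 in number, gave 67.6% (65.0% to 70.2%), with the GC box in 58.2% and the ETS word in 9.64% (8.13% to 11.4%). At TAF9B-POL2 peaks at locus ends the share was 84.6% (83.1% to 85.9%), above that of members with and of members without an annotated start. Over all RefSeq promoters it was 33.3%, below that of both.

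The GC box was in 47.8% of member windows (44.5% to 51.1%), 64.1% at locus ends, 18% and 16.7% in peaks without POL2 and 35.7% of RefSeq promoters. The ETS word was in 12.4% (10.4% to 14.7%), less often than at locus ends (29.1%, 27.4% to 30.9%) and more often than in RefSeq promoters (8.86%) or peaks without POL2 inside and between loci (2.61% and 2.28%), with an interval that overlaps that of peaks without POL2 at locus ends. The Sox word went the other way, with 20.6% (18.0% to 23.4%) in members against 12% (10.8% to 13.3%) at locus ends, 23.4% and 24.4% in peaks without POL2 and 18.7% in RefSeq promoters. The CCAAT box was in 41.9% of members and 37.4% of RefSeq promoters, the E-box words CAGCTG and CAGATG in 20.8% and 12.7% against 16.3% and 17.2%, the CRE in 3.70% against 1.79%, the TATA word in 4.05% against 13.6% and the homeodomain word in 2.08% against 5.29%.

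**Figure D3:**
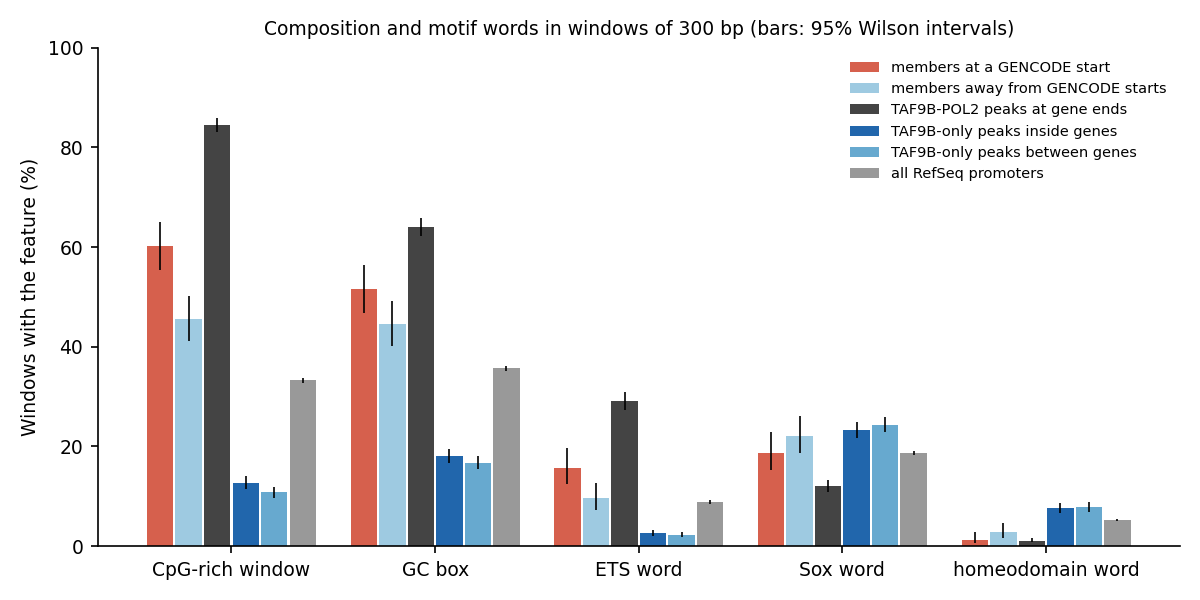
Share of 300-bp windows (%) that are CpG-rich or hold each of 4 motif words on either strand, for members at and away from GENCODE starts, TAF9B-POL2 peaks at locus ends, TAF9B peaks without POL2 and all RefSeq promoters, with error bars of 95% Wilson intervals. Members away from starts are CpG-rich in 45.6% of windows, above the 12.7% and 10.8% of peaks without POL2.

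A member was assigned to the locus that contains it or otherwise to the nearest locus within 50 kb. This gave 842 members a gene and left 25 without one. They belonged to 720 of 22851 genes (3.15%): 621 genes with 1 member, 83 with 2, 11 with 3 and 5 with 4 or more, and 115 of the 720 also had a TAF9B-POL2 peak at a locus end. In the WT library at day 6 the 720 genes had a median of 8.90 FPKM and 603 of them exceeded 1 FPKM (83.8%, 80.9% to 86.3%). All genes in the table had a median of 1.61 FPKM and 53.8% above 1 FPKM, and genes of TAF9B-POL2 peaks at locus ends 15.7 FPKM and 93.3%. Genes of TAF9B peaks without POL2 had medians of 3.60 FPKM (inside) and 3.37 FPKM (between). The same 720 genes had medians of 6.34 FPKM in WT ES cells and 8.52 FPKM in newborn spinal cord.

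Between WT ES cells and WT EB day 6, 178 of 615 member genes above 1 FPKM were more than 2-fold higher at day 6 (28.9%, 25.5% to 32.6%) and 72 lower (11.7%, 9.4% to 14.5%). Over all 12950 genes the same rule gave 23% higher and 15.1% lower. These tables were normalised separately, which limits any level set across them.

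Next, the genes of the members were compared between the libraries labelled KO and WT at each stage, by the count of genes above 1 FPKM in either library that differed more than 2-fold. In ES cells 1 of 560 member genes was lower and 0 higher, where all genes gave 0.585% and 0.46%. At EB day 2 there were 3 lower and 3 higher of 561, where all genes gave 1.35% and 1.15%. At day 4, 29 of 595 were lower (4.87%, 3.41% to 6.91%) and 63 higher (10.6%, 8.36% to 13.3%), near the 4.37% and 12.1% of all genes. With 1 FPKM added to both values the higher share was 6.22%, and 7.54% over all genes. Without a filter the day 4 shares were 5.71% lower and 13.4% higher, below the 8.47% and 22% of all genes. At day 6, 104 of 615 were lower (16.9%, 14.2% to 20.1%) and 31 higher (5.04%, 3.57% to 7.07%), where all genes gave 9.92% and 10.5%. The higher share moved to 3.09% with 1 FPKM added (6.31% over all genes) and to 7.69% without a filter (18.8%), below that of all genes in each case. Members were chosen by a POL2 peak in WT cultures, and 83.8% of their genes exceeded 1 FPKM in the day 6 WT library, against 53.8% of all genes. A gene below 1 FPKM in WT passes the filter only if it is higher in the other library. The selection of the members thus bears on these shares, and its part in them was not tested. In newborn spinal column 79 of 623 were lower (12.7%, 10.3% to 15.5%) and 20 higher (3.21%, 2.09% to 4.91%), where all genes gave 8.55% and 8.99%. Of the 104 member genes lower at day 6, 24 were also lower at day 4 (23.1%, where all genes lower at day 6 gave 21.9%) and 5 were higher there (4.81% against 3.2%). In spinal column 23 of the 104 were lower (22.1% against 20.8%) and 0 higher (against 2.73%). Of the 31 member genes higher at day 6, 18 were also higher at day 4 (58.1% against 52.8%) and 4 were lower in spinal column (12.9% against 5.23%). Day 4 and day 6 used the same clone.

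The shares at day 6 and in spinal column were not particular to the members. In spinal column, genes of TAF9B peaks without POL2 gave 19.6% lower inside and 12.8% between loci, and those of TAF9B-POL2 peaks at locus ends 3.93%. In the same pair 51 of 84 ribosomal protein genes were higher in the library labelled KO (8.99% of all genes were), 3 of the 4 with a member among them, and the part of this difference between the libraries in the spinal column shares was not tested. At day 6, genes of TAF9B peaks inside loci without POL2 gave 17.5% lower (15.6% to 19.6%) and 8.05% higher, those of peaks between loci 15% and 11.7%, and those of TAF9B-POL2 peaks at locus ends 7.97% (6.94% to 9.14%) and 1.94%. Member genes split by position gave 16.1% lower for members inside and 18.8% for members between loci, and 14.2% (10.8% to 18.5%) for members at and 19.9% (15.9% to 24.5%) for members away from GENCODE starts, intervals that overlap. In spinal column that last split gave 8.2% lower at and 17.1% away from GENCODE starts, where all genes gave 8.55%, and the 29 genes with members of both kinds were in both groups. Without those 29 it gave 7.59% (5.06% to 11.2%) and 17.3% (13.5% to 22%) in spinal column, and 13.5% (10.1% to 18%) and 19.7% (15.6% to 24.6%) at day 6. Other cell types moved with the day 6 comparison: in the day 6 library labelled KO, Pou5f1 stood at 543 against 198 FPKM, Krt8 at 441 against 47.2 FPKM and Krt18 at 484 against 60.4 FPKM, while Tubb3 stood at 41.3 against 561 FPKM and Isl1 at 0.549 against 11 FPKM. The part of these differences in cell types in the gene results was not tested, and in bulk cultures fewer cells of a type and less RNA per cell cannot be told apart.

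**Figure D4:**
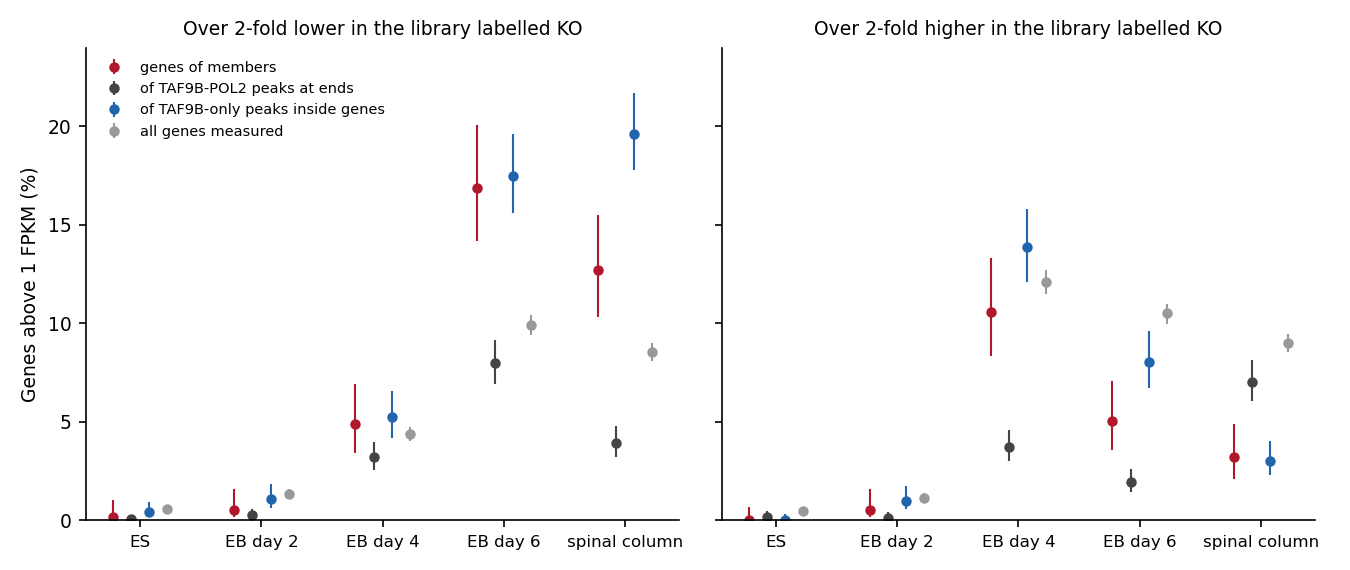
Share of genes above 1 FPKM (%) that were over 2-fold lower (left) or higher (right) in the library labelled KO, at each stage, for the genes of members (red), of TAF9B-POL2 peaks at locus ends (dark grey), of TAF9B peaks inside genes without POL2 (blue) and for all genes (light grey), with 95% Wilson intervals. At day 6 the members reach 16.9% lower against 9.92% of all genes, and in ES cells every group stays below 1%.

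Hox genes, which set position along the body axis, carried 14 members on 9 of 39 genes (23.1%), where 3.15% of all genes had one. These were Hoxa4 with 3 members, Hoxb2 to Hoxb7 with 7, Hoxc4 with 2 and Hoxd3 with 2, where the Hoxa4 locus is merged with Hoxa3, Hoxa5 and Hoxa6 and the Hoxd3 locus with Hoxd4, so the gene given is one of several. Of the 7 Hoxb members, 6 lay in a single POL2 peak of 59742 bp, so their POL2 overlap rests on 1 peak call. Its score was 58.25, where the lowest POL2 score over members was 50. At day 6 all 9 stood at 17.1 FPKM or more in the WT library and all 9 passed the 2-fold limit downwards, where 9.92% of all genes did. The median of their log2 ratios, KO label over WT label, was −3.47, and 5 of the 9 passed the same limit at day 4, where 4.37% of all genes did. In spinal column 0 of the 9 passed it in either direction, with a median of −0.43, where all genes gave 8.55% lower and 8.99% higher. The 22 other Hox genes above 1 FPKM at day 6 had 9 lower and 3 higher, with a median of −0.23. The strongest Hox member, score 295.76, lay 4.39 kb from the nearest locus end and was assigned to Hoxb6. Hoxb6 stood at 0.109 FPKM in WT ES cells and 147 FPKM in WT EB at day 6, and in the libraries labelled KO at 16.9 FPKM at day 4, where WT had 31.2 FPKM, and at 9.77 FPKM at day 6. Hoxb5, whose 2 members lay 0.900 and 4.66 kb outside its locus, stood at 0.0799 (WT) and 0.115 (labelled KO) FPKM in ES cells, 0.0440 and 0.0174 at day 2, 98.1 and 47.3 at day 4, 291 and 12 at day 6, and 4.35 and 2.72 in spinal column. Its log2 ratio was −4.60 at day 6, the second largest fall among the 9 after Hoxd3 (−4.66, 17.6 to 0.698 FPKM). Hoxc4, with members 4.13 and 29.0 kb from its locus, went from 78.6 to 6.81 FPKM (−3.53). Hox genes neighbour each other, so one member could as well be given to the next gene in the cluster.

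Of 14 genes of the Notch pathway, which restrains neighbouring progenitors from becoming neurons, 4 had a member: the receptor Notch1, the ligand Dll1, the glycosyltransferase Lfng, which modifies the receptor, and Hes6, a Hes-family factor linked to neurogenesis. At day 6 each of these 4 was over 2-fold lower in the library labelled KO, as were 4 of the 10 without a member and 9.92% of all genes. Hes6 had its member 922 bp from its locus end and 106 bp from a GENCODE start (score 105.58, POL2 643.48), beside another TAF9B-POL2 peak at an end. It stood at 11.5 (WT) and 13.5 (labelled KO) FPKM in ES cells, 25.8 and 44.6 at day 2, 15.6 and 10.9 at day 4, 53.2 and 16.1 at day 6 and 24.6 and 39.0 in spinal column. The WT library was thus the higher at days 4 and 6 and the lower in the other pairs. The Notch1 member lay 16.4 kb into the locus, in an intron, with only 23.8% of its width under a POL2 peak, and Notch1 went from 5.42 to 2.46 FPKM at day 6 and from 5.40 to 2.09 FPKM in spinal column. Dll1 went from 8.95 to 2.22 and Lfng from 5.63 to 1.69 FPKM at day 6.

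Of 15 genes of the retinoic acid pathway 4 had members. At day 6, 2 of these 4 were lower and 1 higher, and 3 of the 9 others above 1 FPKM were lower and 0 higher, where all genes gave 9.92% lower and 10.5% higher. Rara, with 4 members in 2 pairs 14.9 to 15.4 and 5.86 to 6.14 kb from an end of its locus, stood at 14.7 (WT) and 11.4 (labelled KO) FPKM in ES cells, 13.9 and 15.2 at day 2, 17.3 and 26.5 at day 4, 40.6 and 28.3 at day 6 and 11.4 and 9.46 in spinal column, all pairs within 2-fold. Crabp2, a retinoic acid binding protein, had a member 7.63 kb outside its locus and went from 12.7 FPKM in WT ES cells to 1800 FPKM at day 4 and 552 FPKM at day 6, where the library labelled KO had 843 and 68.7 FPKM. Cyp26a1, the enzyme that degrades retinoic acid, had one 1.05 kb inside its locus, with 173 FPKM in the WT and 68.0 FPKM in the library labelled KO at day 6. Rarg, another receptor, had one 7 bp from an internal GENCODE start and was the higher in the library labelled KO at day 4 (7.32 against 23.8 FPKM) and day 6 (21.3 against 62.6 FPKM).

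Among the genes of motor neuron fate, Mnx1 was the only one of 8 with a member, where 3.15% of all genes had one. All 8 were over 2-fold lower at day 6 with the KO label, where 9.92% of all genes were. Its 2 members were the widest of all 867, 1529 and 1803 bp, and the only ones above 1000 bp, where 7 of all 10415 TAF9B peaks were that wide. They lay 534.5 bp and 7.17 kb from a locus end at chr5:29804781-29806309 and chr5:29811277-29813079, with TAF9B scores of 291.65 and 117.25, under POL2 peaks of 3287 and 4904 bp. The HBG3 line used for ChIP carries the Mnx1 reporter transgene, so peaks over Mnx1 upstream sequence cannot be told apart from peaks over the transgene copies. Mnx1 stood at 0.335 (WT) and 0.234 (labelled KO) FPKM in ES cells, 0.487 and 0.310 at day 2, 2.32 and 5.01 at day 4, 14.3 and 1.62 at day 6, 0.353 and 0 in spinal column and 1.54 in spinal cord. The library labelled KO was the higher at day 4 and the lower at day 6.

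Neural progenitor factors had 2 of 17 genes with a member, and both were over 2-fold lower at days 4 and 6. So were 10 of the 14 genes of this list above 1 FPKM without a member at day 4 and 9 of 14 at day 6, where all genes gave 4.37% and 9.92%. Pax6, a homeodomain factor of neural progenitors, had one 22.0 kb from a locus end and 63.0 bp from an internal start, and stood at 0.533 (WT) and 0.611 (labelled KO) FPKM in ES cells, 0.771 and 0.876 at day 2, 109 and 29.5 at day 4, 13.3 and 1.88 at day 6 and 1.27 and 1.02 in spinal column. Ptch1, the hedgehog receptor, had one 2.51 kb outside its locus and went from 92.6 to 26.5 FPKM at day 4 and from 11.2 to 4.41 FPKM at day 6. Of 17 axon guidance genes, Epha3 had an intronic member of score 368.19 with 0.755 and 0.231 FPKM at day 6, below the filter, and Sema6a one of score 82.35 with 5.82 and 2.81 FPKM. In that list 8 of 12 genes above 1 FPKM were lower. None of 14 general neuron genes, 10 proneural factors, 12 respiratory chain genes, 12 mesoderm and vessel genes or 97 snoRNA genes of the table had a member, while 8 of the neuron genes and 6 of the proneural factors had some other TAF9B peak. At day 6, 13 of the 14 neuron genes and all 7 proneural factors above 1 FPKM were lower, 0 of the 12 respiratory chain genes differed 2-fold, 5 of 7 mesoderm and vessel genes were higher (10.5% of all genes were), and 16 of 58 snoRNA genes were lower and 16 higher. Poly-A libraries do not measure snoRNAs, so the snoRNA counts are no result about these genes. Tubb3 (1 TAF9B-POL2 peak at an end), Neurog2 and Lhx4 (2 peaks without POL2 each) and Ccnc (1 at an end and 2 without POL2) had no member.

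Of 14 pluripotency genes, 10 of which were over 2-fold higher with the KO label at day 6 (10.5% of all genes were), Klf4 was the only one with a member. It lay 12.3 kb from its locus, and Klf4 had 99.4 FPKM in WT ES cells and, at day 6, 5.41 FPKM in the WT and 21.5 FPKM in the library labelled KO. TFIID and SAGA subunits had 2 of 28, Taf6l and the acetyltransferase Kat2b, and pausing and elongation factors 2 of 19, Larp7 and Cdk12, with all 4 within 2-fold at day 6. In these lists 2 of 28 and 1 of 19 genes were higher and 0 lower, where all genes gave 10.5% higher and 9.92% lower. The Taf6l member sat 24 bp from the start of Tmem179b, and the Larp7 member 37.6 kb from that locus, at the start of another gene. Cytosolic ribosomal protein genes had 4 of 85 (4.71%), close to the 3.15% of all genes, with log2 ratios of −0.18 to 0.16 at day 6, where none of 84 such genes above 1 FPKM differed 2-fold. Histone genes had 4 of 63, with 2 lower and 5 higher of 51 genes above 1 FPKM at day 6, shares no larger than those of all genes, and none of them a gene with a member.

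Over all member genes above 1 FPKM in both day 6 libraries, the 5 largest falls were those of Hoxb5 (−4.60 on the log2 scale), Rhbdl3 (−4.22), Hoxb6 (−3.92), a locus without a symbol next to GENCODE Tmem132e (−3.54) and Hoxc4 (−3.53). Rhbdl3, a rhomboid-family gene, had 3 members up to 10.9 kb from its 5′ end, of score 145.84 to 250.47, and went from 20.4 to 1.09 FPKM. The 5 largest rises were those of Klf4 (1.99), Arid5b (1.63), Shisal2a (1.61), Capg (1.57) and Rarg (1.55). Arid5b, a chromatin regulator, went from 1.14 to 3.55 FPKM and Capg, an actin capping protein, from 24.1 to 71.5 FPKM. Tet1, with one of the strongest members, went from 50.5 FPKM in WT ES cells to 1.66 FPKM at day 6, where the library labelled KO had 4.54 FPKM. In spinal column it stood at 1.26 and, labelled KO, 0.516 FPKM, values from a fit the table marks as failed, so this pair was left out of the counts.

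**Figure D5:**
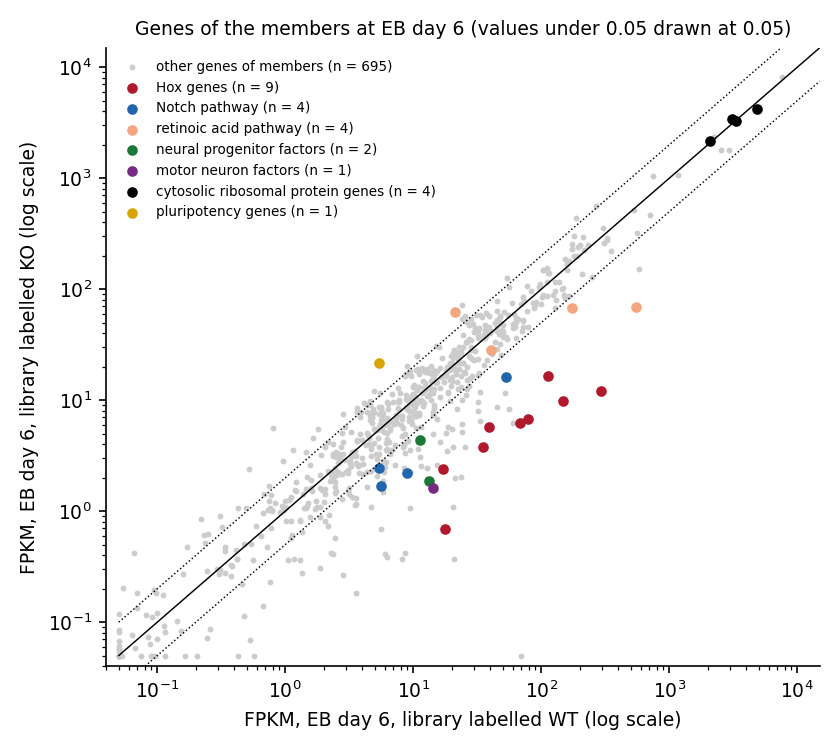
FPKM of each of the 720 genes of members at EB day 6 in the library labelled WT (log scale) and labelled KO (log scale), with a solid line for equal values and dotted lines at 2-fold, genes of named lists in colour and values under 0.05 drawn at 0.05. The 9 Hox genes (red) and 4 Notch genes (blue) lie below the lower dotted line, and the 4 ribosomal protein genes (black) lie near the solid line.

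MicroRNA genes were assigned 16 members, on 11 of 513 such genes (2.14%, 1.2% to 3.8%), an interval that holds the 3.15% of all genes. Several give microRNAs abundant in neurons, and the mature sequences (RefSeq, GRCm38) of 4 are shown with the seed, bases 2 to 8, in capitals.
miR-9-5p: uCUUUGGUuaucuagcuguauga
miR-125b-5p: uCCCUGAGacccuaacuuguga
miR-7a-5p: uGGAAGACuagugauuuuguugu
miR-7b-5p: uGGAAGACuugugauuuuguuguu
miR-7a-5p and miR-7b-5p have the same seed, and miR-9-5p comes from both Mir9-2 and Mir9-3. Mir9-3 had 4 members over 35.9 kb, 3 of them with the lincRNA AI854517 as the nearest start. The strongest of the 4, of score 143.96, was the other one, 412.5 bp from a start that GENCODE classes as a microRNA. It lay under a POL2 peak of 6590 bp and score 2114.86. The Mir9-3 locus is merged with that of Mir9-3hg, so these members could as well be given to Mir9-3hg. Mir9-2 had 2 members, at 0.96 and 6.26 kb. Mir125b-2 had one 1.75 kb away (score 185.91), Mir129-2 one 5.6 kb away (154.44) and Mir7b one 1.29 kb away (127.38). All but 1 of the 11 were listed at 0 FPKM in both day 6 libraries, in which short RNAs were not measured.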

How the data were processed

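ChIP-seq peaks of TAF9B and POL2 and RNA-seq expression tables from mouse cells and tissue were used as deposited. According to the study's methods the authors aligned ChIP reads with Bowtie (mm9) and ran MACS on each library, and deposited peak positions with a score of no stated unit. Whether the IgG library served as control is not given in the sources used here. RNA reads were mapped with TopHat and the authors deposited FPKM per RefSeq locus from Cuffdiff, each table normalised on its own. Tool versions and read depths are not given, so no interval for depth could be made. The authors' log2 fold change and p-value columns hold their own comparisons and were not used.

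Members were peaks with at least 1 bp under a POL2 peak and a midpoint over 500 bp from every locus end. The members and gene lists were chosen with earlier results of these data known. Loci could be merged spans of several genes. Rows were joined by first accession and locus, and 22762 of 23152 rows matched a RefSeq symbol. A gene was counted as lower or higher past 2-fold, above 1 FPKM in either library and without a failed status, and no pseudocount was added. Shares carry 95% Wilson intervals (scipy 1.17.1), which cover counting error only. Named genes were those the study showed for ChIP, genes of the 8 strongest members, genes with 4 or more members, the 5 largest falls and rises at day 6 above 1 FPKM in both libraries, up to 4 genes per list by score, 3 members on each side of the 500-bp limit and 5 farthest from a locus. Sequences were read from mm9 with pysam 0.24.0, and printed windows hold no annotated UTR. Scripts were tested on simulated peaks and fold changes. Alternatives changed the overlap, the distance limit, score minimum, gene assignment, FPKM filter, pseudocount and centring.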

Additional observations from a re-analysis of the deposited data

Results flagged for a closer look

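Mnx1, Sema6a and Shisal2a, each with a member, differed more than 2-fold in opposite directions in a pair of comparisons, a difference that was not tested because every condition had 1 library. The log2 ratio of the library labelled KO over WT was 1.11 at EB day 4 and −3.14 at day 6 for Mnx1, 1.10 and −1.05 for Sema6a, and 1.61 at EB day 6 and −2.33 in newborn spinal column for Shisal2a. They are among the 5 of 104 member genes lower at day 6 that were higher at day 4 (4.81%, where all genes gave 3.2%) and the 4 of 31 higher at day 6 that were lower in spinal column (12.9%, where all genes gave 5.23%). Tet1, at 1.45 at day 6 and −1.28 in spinal column, was not counted because its spinal column fit is marked as failed.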

How the results depend on the processing

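No paired analysis was possible because every condition had 1 library. Of 117 values recomputed under alternatives, 97 stayed within the interval of the reported value or, for the number of members, within 1.5 times of it. The number of members fell to 416 at 5000 bp from every locus end, 530 with TAF9B scores above the median and 490 with POL2 scores above the median. Their share of TAF9B-POL2 peaks was 19.5% at 1000 bp, 12% at 5000 bp, 23.2% where the whole peak had to clear the limit and 23% with POL2 scores above the median. The median FPKM in the day 6 WT library of member genes above 1 FPKM, 11.3, was 9.54 at 5000 bp, 14.3 with POL2 scores above the median, 18.5 above 5 FPKM and 8.9 without a filter. The day 6 share of lower genes, 16.9%, was 14% at 5000 bp, where all genes gave 9.92%, and 12.7% with 1 FPKM added to both values (7% of all genes). Without a filter it was 17.5%, against 13.4% of all genes. The day 6 share of higher genes, 5.04%, was 3.09% with POL2 scores above the median, where all genes gave 10.5%. It was 7.69% without a filter (18.8% of all genes) and 3.09% with 1 FPKM added (6.31%). At day 4 the share of lower genes was 3.36% with 1 FPKM added (2.85% of all genes). The share of higher genes was 7.60% with POL2 scores above the median (12.1% of all genes), 13.4% without a filter (22%) and 6.22% with 1 FPKM added (7.54%). Alternatives chosen after seeing the data (the gene of the GENCODE start, members at or away from GENCODE starts only, no chromosome 11, no Hox genes, no members in loci of several genes, and no genes with a TAF9B-POL2 peak at an end) stayed within those intervals, and over all alternatives the day 6 share of lower genes was 12.7% to 20%.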
